A study of Mus musculus with 9 samples.

Results

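The 10 genes described here encode transcription factors of epithelial lineages: the ETS factors Ehf, Elf3 and Elf5, the p53 family member Trp63, the Kruppel-like factors Klf4 and Klf5, the AP-2 factors Tfap2a and Tfap2c, and Sox9 and Gata3. They were chosen by name, and each was read from the transcript cluster, the probes of an array that read the same transcript, that carries its symbol. All 10 had exactly 1 such cluster, with 19 to 41 probes, and all were among the 18497 genes tested of 19935 genes on the arrays. They were measured in HC11, an epithelial cell line from the mammary gland of BALB/c mice that was cloned from the COMMA-1D line. Total RNA was read on 9 Affymetrix Mouse Gene ST arrays, 3 from cells transfected with FoxF1, a forkhead transcription factor, 3 from cells transfected with NFI-C2, a nuclear factor I transcription factor used in a stable form, and 3 from cells that the labels call wild type and the methods vector control. All 3 groups share the parental line and its growth medium with insulin and EGF. The replicates, which the methods describe as pools of cells, are not stated to come from separate transfections, so that p-values measure only the spread between these arrays and may not cover variation between independently made lines. The names FoxF1, NFI-C2 and wild type cells follow the labels, and the question was how far the epithelial program of transcription factors differed between the transfected and the wild type cells.

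Transcription factors of these families act together in epithelial cells, where they hold the genes of adhesion, keratins and barrier open and keep cells in a basal, luminal or squamous state. In the mammary gland, p63 marks the outer basal layer, whereas Gata3 and Elf5 direct the inner luminal cells and, during pregnancy, the milk-producing alveoli. Ehf, Elf3 and the grainyhead-like factors are found in nearly all simple and stratified epithelia.

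The deposited log2 expression values hold no levels, since each cluster was set to a median of 0 across the arrays, and genes can therefore not be ranked by how strongly they were expressed. Over the genes tested, the values spread most widely on the FoxF1 arrays (SD 0.622 to 0.635), followed by NFI-C2 (SD 0.223 to 0.24) and wild type (SD 0.194 to 0.203). The cluster of Foxf1 differed by 0.20 between FoxF1 and wild type cells (adjusted p = 0.361), and that of Nfic by -0.04 between NFI-C2 and wild type cells (adjusted p = 0.767), so neither transfected gene passed the test in its own cells. Each fell in the cells given the other gene, Foxf1 by 1.24 with NFI-C2 (adjusted p = 8.2e-04) and Nfic by 0.26 with FoxF1 (adjusted p = 0.0238). How far these clusters read the transfected constructs is not given in the sources used here. The paper also measured FoxF1 mRNA by RT-PCR in parental, NFI-C2 and FoxF1 cells, and reports high FoxF1 together with high lysyl oxidase expression. All 6 epithelial markers on a fixed list fell in FoxF1 cells, and the mean of that list over its genes was -5.39 to -4.62 on FoxF1 arrays and 0.77 to 0.78 on wild type arrays. Of 9 fibroblast markers 5 rose and 1, Postn, fell in FoxF1 cells, with array means of 0.02 to 0.58 against -0.10 to -0.05 in wild type cells, and adipocyte markers (2 of 5 higher) had array means of 0.39 to 0.63 against -0.05 to -0.03. Of the adipocyte markers, the lipid carrier gene Fabp4 rose by 2.44 (adjusted p = 6.1e-05), Pparg by 0.21 (adjusted p = 0.0329), and the other 3 differed by 0.00 to 0.05. Only 1 adipocyte marker was called higher with only the 2 groups compared, or when any single wild type array was left out. Among 5 endothelial markers 1 rose and 1 fell (20% each). Of all genes tested, 20.2% rose and 18.8% fell with FoxF1. Among 4 leukocyte markers Cd68 was at 0.36 (adjusted p = 0.0494), and it no longer passed under several alternatives, the replicate block among them. The part of these markers in the results on the 10 factors was not tested, and whether any marker is absent cannot be seen in centred values. Because RNA came from whole cultures, fewer cells expressing a gene and less RNA per cell cannot be told apart.

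In FoxF1 cells, 9 of the 10 factors fell and none rose. The background rate in this comparison was 18.8% of all genes tested called lower and 20.2% called higher, a gene being called where its limma adjusted p was under 0.05. The fall was 62.5-fold for Ehf, 16-fold for Tfap2c and 10.7-fold for Trp63, between 3 and 4-fold for Sox9, Elf5 and Elf3, and under 1.5-fold for Tfap2a, Klf4 and Klf5. The FoxF1 arrays of these 9 lay entirely below the wild type arrays, as they did for 21.4% of all genes tested, while 23.2% lay entirely above. Gata3, a master regulator of luminal cells, differed by 0.02 and did not pass. In NFI-C2 cells 3 of the 10 rose (Trp63, Klf4 and Klf5), 3 fell (Gata3, Elf5 and Ehf) and 4 did not pass, against a background of 8.59% of genes called higher and 12.2% called lower. The NFI-C2 arrays lay entirely above the wild type arrays for 3 of the 10 and entirely below for 4, against 14.1% and 18.1% of all genes tested. The median difference of the 10 factors was -1.67 with FoxF1 and -0.02 with NFI-C2, where the median over all genes tested was 0.01 and 0.00. Both comparisons use the same wild type arrays and are therefore given side by side.

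**Figure D1:**
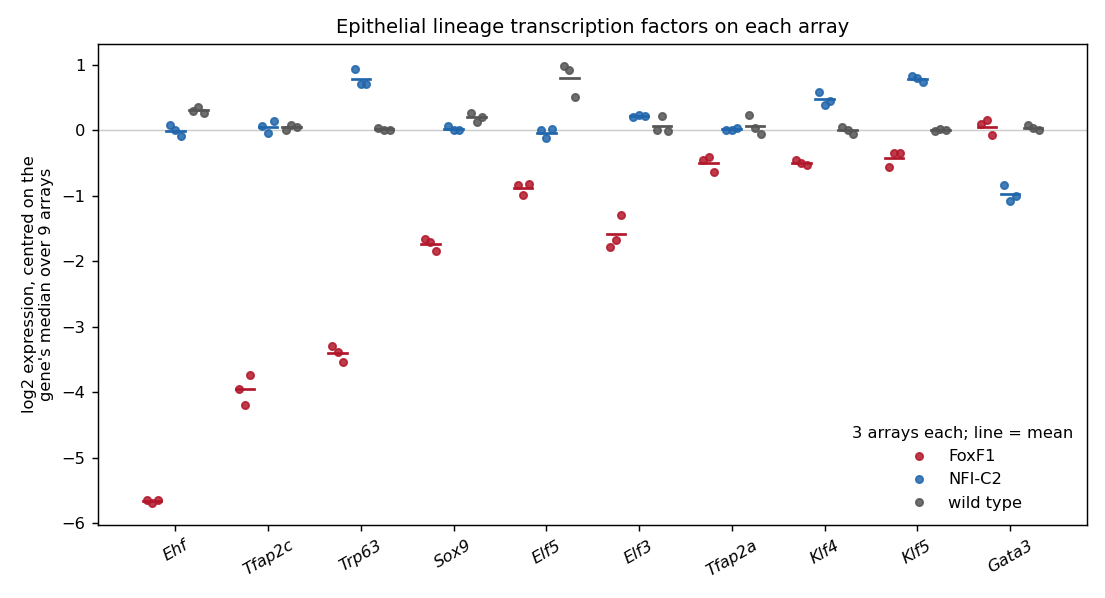
Values of the 10 factors on each array. The y axis is log2 expression centred on each gene's median over the 9 arrays, points are single arrays and lines are means of 3 arrays. The FoxF1 arrays lie below those of the other groups for all factors but Gata3, whose NFI-C2 arrays lie lowest, from -1.08 to -0.83.

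Promoter windows from RefSeq (build GRCm38.p6, 250 bases before to 50 bases after a start site) were at hand for 5 of the 10 genes, with 7 windows in all, namely Elf3, Gata3, Klf4, Elf5 and Tfap2a, the last 2 with 2 windows each. They were searched on both strands for the core that forkhead factors bind, GTAAACA or ATAAACA, for the short site of nuclear factor I, TTGGCA, and for its full palindromic site, TTGGC and GCCAA separated by 5 bases. Of 32851 mouse promoter windows of that length, 7.97% held the forkhead core, 14.1% the short site and 0.0365% the full site. Windows of 3 genes are shown here, that of Klf4 because it alone of the 7 held a match, that of Elf3 as a factor that fell with FoxF1 and did not pass with NFI-C2, and that of Gata3 for the converse. They run 5′ to 3′ on the strand of the gene and the match is in capitals.
Klf4 (chr4:55532426-55532725, minus strand): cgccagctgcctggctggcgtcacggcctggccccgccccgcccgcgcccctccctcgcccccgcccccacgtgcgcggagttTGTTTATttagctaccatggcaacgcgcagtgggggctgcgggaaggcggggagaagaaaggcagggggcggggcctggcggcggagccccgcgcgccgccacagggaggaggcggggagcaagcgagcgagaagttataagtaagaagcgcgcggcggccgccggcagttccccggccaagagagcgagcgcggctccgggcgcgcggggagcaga
Elf3 (chr1:135258423-135258722, minus strand): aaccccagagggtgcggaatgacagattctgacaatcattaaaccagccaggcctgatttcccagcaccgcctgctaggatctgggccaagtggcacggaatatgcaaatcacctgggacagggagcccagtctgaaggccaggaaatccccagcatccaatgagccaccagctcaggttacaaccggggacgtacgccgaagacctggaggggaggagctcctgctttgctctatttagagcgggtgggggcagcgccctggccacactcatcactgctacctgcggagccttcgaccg
Gata3 (chr2:9878551-9878850, minus strand): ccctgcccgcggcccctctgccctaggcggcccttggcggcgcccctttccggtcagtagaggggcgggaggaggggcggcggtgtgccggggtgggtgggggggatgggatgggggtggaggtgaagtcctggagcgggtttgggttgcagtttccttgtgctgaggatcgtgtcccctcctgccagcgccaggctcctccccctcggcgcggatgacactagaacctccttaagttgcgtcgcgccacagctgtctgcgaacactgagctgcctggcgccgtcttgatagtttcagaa
The match in Klf4 is TGTTTAT, the reverse complement of ATAAACA, at position -167 from the start site in a window of 74.3% G and C, a share higher than in any of the other 6 windows (46.3 to 67.3%). The windows of Elf3, Gata3, Elf5 and Tfap2a held no match to these letters, which says nothing of binding by either factor. A match is a description of the letters and not a binding site.

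The ETS factor Ehf, restricted to epithelial cells, showed the greatest fall of the 10 (cluster at chr2:103103590-103143353, build NCBIM37, minus strand). It stood at -5.64, -5.69 and -5.64 on the FoxF1 arrays, at 0.07, 0.00 and -0.09 on the NFI-C2 arrays and at 0.30, 0.36 and 0.27 on the wild type arrays. The 3 groups did not overlap, and the FoxF1 arrays lay more than 5 log2 units below all others. Against wild type cells Ehf fell by 5.97 in FoxF1 cells (SE 0.0447, n = 3 per group, adjusted p = 3.9e-10), to 1.6% of the wild type value, and 10 of the 18497 genes tested had a lower difference. In NFI-C2 cells the fall was 0.315 (adjusted p = 0.00221), to 80.4% of the wild type value. With a separate variance for each group the latter no longer passed (adjusted p = 0.0868).

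Elf5, which specifies the alveolar cells that make milk, lies on the same chromosome as Ehf (chr2:103264234-103291146, plus strand), 120.9 kb from its cluster. Its values were -0.83, -0.98 and -0.82 on FoxF1 arrays, 0.00, -0.13 and 0.02 on NFI-C2 arrays and 0.98, 0.91 and 0.50 on wild type arrays. The groups were again separate and in the order wild type, NFI-C2, FoxF1, with the third wild type array below the other 2. Elf5 fell by 1.68 with FoxF1 (SE 0.123, adjusted p = 2.0e-05) and by 0.84 with NFI-C2 (SE 0.123, adjusted p = 0.0026), which are falls of 3.21-fold and 1.78-fold. With a separate variance for each group, the fall with NFI-C2 had an adjusted p of 0.133. Elf3, another ETS factor of simple and stratified epithelia (chr1:137150156-137155015, minus strand), fell in FoxF1 cells and did not pass in NFI-C2 cells. It was measured at -1.78, -1.67 and -1.29 with FoxF1, at 0.21, 0.24 and 0.21 with NFI-C2 and at 0.00, 0.21 and 0.00 in wild type cells. FoxF1 arrays lay below all others, and the NFI-C2 and wild type arrays overlapped. Elf3 fell by 1.65 with FoxF1 (SE 0.124, adjusted p = 2.4e-05), whereas the difference with NFI-C2 was 0.15, with a 95% confidence interval from -0.14 to 0.44 (adjusted p = 0.506).

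Among 17 other ETS factors tested, 6 fell (35.3%) and 5 rose (29.4%) in FoxF1 cells, against 18.8% and 20.2% of all genes tested. The median difference of the 17 was -0.11. The clusters named Etv1 and Etv5 lie on another chromosome than the RefSeq genes of these names, and without them 6 of 15 fell and 4 rose. Etv6, a repressor, fell by 1.53 (adjusted p = 3.8e-07), Erf, a repressor as well, by 0.80 (adjusted p = 6.3e-05) and Ets2 by 0.74 (adjusted p = 4.2e-06). In NFI-C2 cells 4 of the 17 fell (23.5%) and 2 rose (11.8%), against 12.2% and 8.59% of all genes tested. Among them were Elk3 at -0.52 (adjusted p = 3.0e-05) and Etv6 at 0.36 (adjusted p = 0.00292). Spdef, an ETS factor of secretory epithelial cells, was at 0.01 and -0.02 in the 2 comparisons and passed in neither.

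Trp63 encodes p63, which maintains the basal cells of skin, prostate and breast (chr16:25684376-25892174, plus strand). The FoxF1 arrays had -3.29, -3.39 and -3.53, the NFI-C2 arrays 0.93, 0.70 and 0.71 and the wild type arrays 0.04, 0.00 and 0.00. No groups overlapped, and the 2 transfected lines lay on opposite sides of wild type cells. Trp63 fell by 3.42 with FoxF1 (SE 0.0773, adjusted p = 4.2e-08), to 9.37% of the wild type value, and rose by 0.77 with NFI-C2 (SE 0.0773, adjusted p = 4.4e-04), to 170% of it. With a separate variance for each group the rise had an adjusted p of 0.0747. The array cluster does not tell the forms of p63 with and without the transactivation domain apart.

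Of 17 genes tested from a list of p63 target genes of epidermis, 15 fell, 1 rose and 1 did not pass in FoxF1 cells, at a median difference of -2.87. The list does not give the direction in which p63 acts on each gene. The basal keratin genes Krt5 and Krt14 fell, at -7.35 (adjusted p = 1.7e-05) and -5.59 (adjusted p = 1.2e-07), as did the desmosomal plaque gene Dsp at -5.5 (adjusted p = 1.5e-08) and the hemidesmosomal integrin gene Itgb4 at -4.99 (adjusted p = 1.1e-07). The exception was Dst, a cytoskeletal linker gene, which rose by 1.24 (adjusted p = 2.4e-07). In NFI-C2 cells 12 of the 17 rose and none fell, at a median of 0.50, with Col17a1, a collagen of hemidesmosomes, at 1.01 (adjusted p = 5.0e-04), Bcl11b, a zinc finger factor, at 0.96 (adjusted p = 1.8e-04) and the laminin gene Lama3 at 0.83 (adjusted p = 3.5e-04). Krt5 and Krt14 were at 0.22 (adjusted p = 0.861) and 0.43 (adjusted p = 0.106) there. The cluster named Sfn lies on another chromosome than the RefSeq gene, and without it the counts were 14 of 16 lower with FoxF1 and 11 of 16 higher with NFI-C2. With the 1.5-fold criterion added to the call, 13 of the 17 fell with FoxF1 and 7 rose with NFI-C2. Of all genes tested, 9.03% fell and 2.29% rose that far in these comparisons, and 18.8% and 8.59% did without the criterion. Tested against a change of 1.5-fold, however, 0 of the 17 were higher with NFI-C2. With a separate variance for each group, 14 fell with FoxF1 and 8 rose with NFI-C2.

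**Figure D2:**
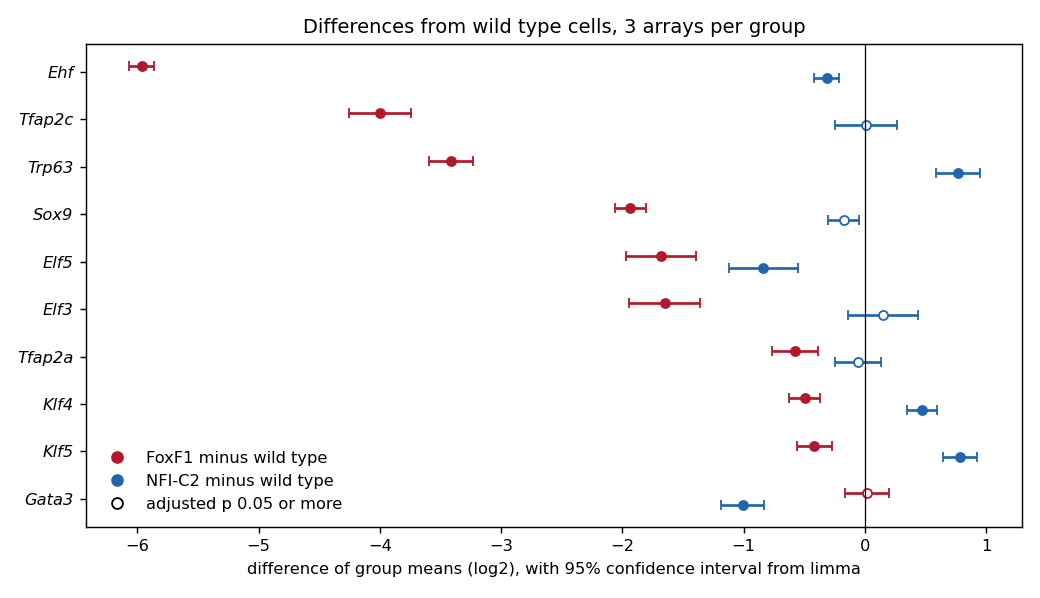
Differences of the 10 factors from wild type cells. The x axis is the difference of group means in log2 units, points are estimates from limma with 3 arrays per group, bars are 95% confidence intervals, and open points did not pass. Ehf lies lowest at -5.97 with FoxF1, and Trp63, Klf4 and Klf5 lie on opposite sides of 0 with FoxF1 and NFI-C2.

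Klf4 and Klf5 followed the order of Trp63, with NFI-C2 arrays highest and FoxF1 arrays lowest, but over a smaller range. Klf4 is needed for the barrier of the epidermis and Klf5 is found in dividing basal cells of many epithelia. Klf4 (chr4:55540015-55545338, minus strand, build NCBIM37) had -0.46, -0.50 and -0.53 on FoxF1 arrays, 0.59, 0.38 and 0.45 on NFI-C2 arrays and 0.05, 0.00 and -0.05 on wild type arrays. All 3 groups were separate. It fell by 0.50 with FoxF1 (SE 0.0545, adjusted p = 2.0e-04) and rose by 0.47 with NFI-C2 (SE 0.0545, adjusted p = 8.5e-04), to 70.8% and 139% of the wild type value. Klf5 (chr14:99697910-99712664, plus strand) had -0.56, -0.34 and -0.34 with FoxF1, 0.83, 0.80 and 0.73 with NFI-C2 and -0.01, 0.01 and 0.00 in wild type cells. The groups did not overlap, and the rise with NFI-C2, 0.79 (SE 0.0605, adjusted p = 1.3e-04), stood beside a difference with FoxF1 of -0.42 (SE 0.0605, adjusted p = 9.2e-04). With a separate variance for each group, Klf5 had an adjusted p of 0.0876 with FoxF1 and Klf4 of 0.0724 with NFI-C2. Of 15 other Kruppel-like factors, 8 fell (53.3%) and 1 rose (6.67%) with FoxF1, but none of them by 1.5-fold. With NFI-C2, 3 rose (20%) and 2 fell (13.3%). Of all genes tested, 18.8% fell and 20.2% rose with FoxF1, and 12.2% fell and 8.59% rose with NFI-C2. Where each group had its own variance, 3 of the 15 were lower with FoxF1. Klf3 and Klf10 were called in opposite directions as Klf4 and Klf5 were. Klf3 was at -0.58 with FoxF1 (adjusted p = 8.7e-05) and 0.37 with NFI-C2 (adjusted p = 0.00293). Klf10 was at -0.38 with FoxF1 (adjusted p = 0.00152) and 0.72 with NFI-C2 (adjusted p = 1.8e-04). Klf9 instead rose in both (0.43, adjusted p = 4.0e-04, and 0.23, adjusted p = 0.0188).

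The AP-2 factors shape the ectoderm and the luminal state of breast cells. Tfap2c (chr2:172375114-172384109, plus strand) had -3.94, -4.20 and -3.73 on FoxF1 arrays, 0.07, -0.04 and 0.13 on NFI-C2 arrays and 0.00, 0.08 and 0.04 on wild type arrays. FoxF1 arrays lay far below the rest, and NFI-C2 and wild type arrays overlapped. Tfap2c fell by 4.0 with FoxF1 (SE 0.109, adjusted p = 1.0e-07), to 6.25% of the wild type value, and its difference with NFI-C2 was 0.01, with a confidence interval from -0.25 to 0.27. Tfap2a (chr13:40811044-40833510, minus strand), a factor of skin and neural crest, had -0.46, -0.41 and -0.64 with FoxF1, 0.01, 0.00 and 0.03 with NFI-C2 and 0.23, 0.04 and -0.05 in wild type cells. Again only the FoxF1 arrays stood apart. Tfap2a differed by -0.575 with FoxF1 (SE 0.0808, adjusted p = 7.7e-04), and with NFI-C2 its difference was -0.06, with an interval from -0.25 to 0.13 (adjusted p = 0.728). The files list both genes under the older symbols Tcfap2a and Tcfap2c. Of 8 other factors of the AP-2, GATA and p53 families, 2 were lower (25%) and 1 higher (12.5%) with FoxF1. Of all genes tested, 18.8% were lower and 20.2% higher there. With NFI-C2, 1 of the 8 was lower (12.5%), against 12.2% of all genes tested. The one higher was Gata2, at 0.23 (adjusted p = 0.035), which no longer passed with the replicate block, after quantile normalization, with a separate variance for each group, with only the 2 groups compared, or without FoxF1 replicate 3 or any single NFI-C2 array. The paralog Tfap2b fell in both, by 2.77 with FoxF1 (adjusted p = 1.1e-07) and by 0.89 with NFI-C2 (adjusted p = 2.0e-04). Trp73, a relative of Trp63, fell by 0.38 with FoxF1 (adjusted p = 0.00288).

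Sox9, which marks progenitor cells of the mammary gland (chr11:112643538-112649063, plus strand), was at -1.66, -1.71 and -1.84 on FoxF1 arrays, 0.06, 0.00 and 0.00 on NFI-C2 arrays and 0.26, 0.12 and 0.21 on wild type arrays. The 3 groups did not overlap, the NFI-C2 arrays lying just below the wild type arrays. It fell by 1.94 with FoxF1 (SE 0.0542, adjusted p = 1.2e-07), to 26.1% of the wild type value. With NFI-C2 its difference was -0.17 (interval -0.30 to -0.05, adjusted p = 0.0621), which did not pass. It did pass without FoxF1 replicate 3 (adjusted p = 0.027), which enters this comparison through the shared variance, and without wild type replicate 2 (-0.21, adjusted p = 0.047). Of 17 other Sox factors 5 fell (29.4%) and 1 rose (5.88%) with FoxF1, against 18.8% and 20.2% of all genes tested. With NFI-C2, 4 fell (23.5%) and 1 rose (5.88%), against 12.2% and 8.59% of all genes tested. Those lower were 2 with FoxF1 and 1 with NFI-C2 when each group had its own variance. Sox11 fell by 1.75 and 0.94 (adjusted p = 2.9e-06 and 3.5e-04) and Sox6 by 1.35 and 0.67 (adjusted p = 2.4e-04 and 0.0187) in the 2 comparisons.

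Gata3, which establishes and maintains luminal cells (chr2:9778695-9799403, minus strand), was the only factor of the 10 whose lowest values were on the NFI-C2 arrays. They stood at -0.83, -1.08 and -1.0, against 0.09, 0.15 and -0.07 with FoxF1 and 0.09, 0.03 and 0.00 in wild type cells. The FoxF1 and wild type arrays overlapped and the NFI-C2 arrays lay below both. Gata3 fell by 1.01 with NFI-C2 (SE 0.0765, adjusted p = 1.2e-04), to 49.7% of the wild type value, and was at 0.02 with FoxF1 (interval -0.16 to 0.20, adjusted p = 0.942). In NFI-C2 cells the list of luminal markers had 9 of 15 genes lower and 0 higher, led by the simple epithelial keratin genes Krt7 at -3.33 (adjusted p = 4.7e-06) and Krt18 at -3.21 (adjusted p = 6.5e-08) and the milk protein gene Ltf at -3.25 (adjusted p = 2.0e-06). Of 14 basal markers 5 rose and none fell, among them the P-cadherin gene Cdh3 at 1.23 (adjusted p = 2.0e-05) and Snai2 at 0.80 (adjusted p = 1.4e-04). The basal keratin genes Krt5, Krt14 and Krt17 did not pass with NFI-C2. Tested against a change of 1.5-fold, 5 luminal markers were lower and 1 basal marker was higher with NFI-C2. Of 20 genes of squamous differentiation 10 rose and none fell, with Krtdap at 3.47 (adjusted p = 4.7e-06) and Krt16 at 2.77 (adjusted p = 1.5e-05). In FoxF1 cells the luminal list had 10 of 15 genes lower and none higher, the basal list 7 of 14 lower and 4 higher, and the squamous list 10 of 20 lower and 1 higher. Of all genes tested, 18.8% were lower and 20.2% higher with FoxF1, and 12.2% lower and 8.59% higher with NFI-C2. The gene lists overlap, and Krt5, Krt14, Krt18, Itgb4 and Bcl11b are among the genes on more than 1 of them.

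**Figure D3:**
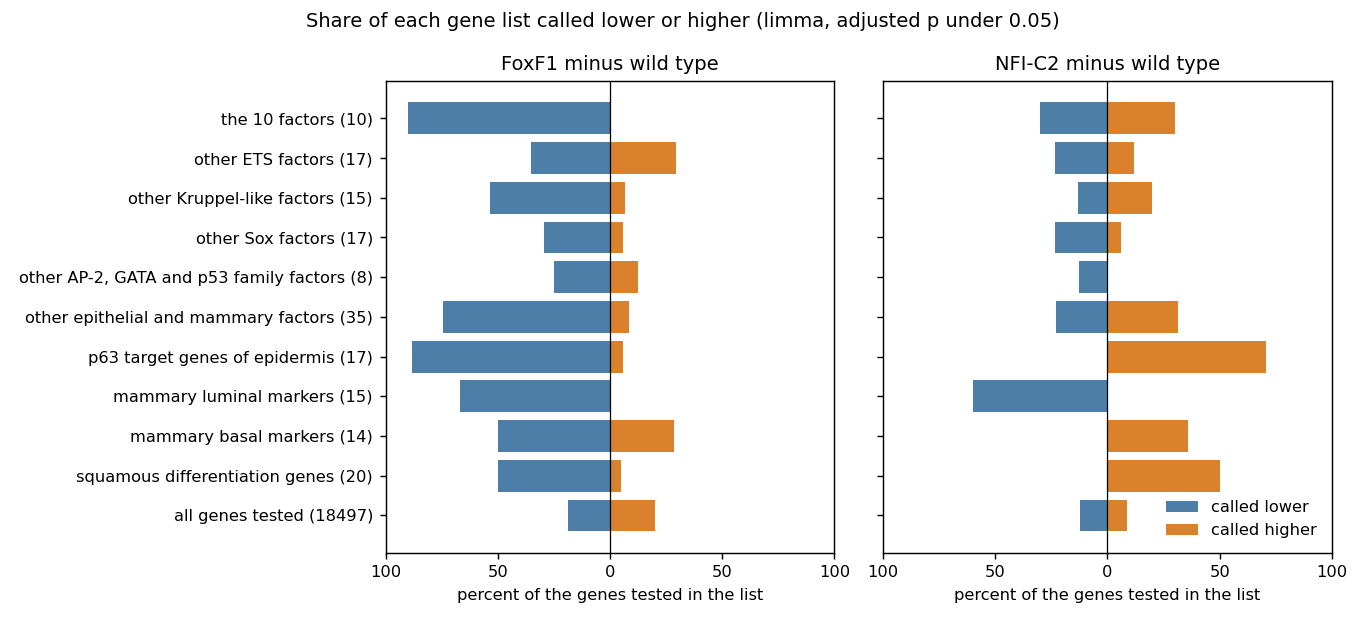
Share of each gene list called lower (left of 0) or higher (right of 0) against wild type cells, in percent of the genes tested in the list, with the number tested in brackets. With FoxF1, 90% of the 10 factors and 88.2% of the p63 target genes were called lower, and with NFI-C2 70.6% of the p63 target genes were called higher and 60% of the luminal markers lower.

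Set against NFI-C2 cells, FoxF1 cells had 9 of the 10 factors lower and 1, Gata3, higher, where 19.1% of all genes tested were called lower and 22.9% higher. The median difference of the 10 was -1.48, and that of all genes 0.00. The 3 factors on opposite sides of wild type cells were farther apart here than in either comparison with them, as their opposite signs require. Trp63 differed by -4.18 (adjusted p = 1.4e-08, 18.2-fold), Klf5 by -1.20 (adjusted p = 2.2e-06) and Klf4 by -0.97 (adjusted p = 4.0e-06). Ehf, at -5.65 (adjusted p = 6.9e-10), and Tfap2c, at -4.01 (adjusted p = 9.1e-08), had the lowest values together with Trp63. Sox9 and Elf3 differed by -1.76 (adjusted p = 1.7e-07) and -1.80 (adjusted p = 1.3e-05), and Elf5 differed by -0.845 (adjusted p = 8.0e-04). Gata3 was higher by 1.03 (adjusted p = 1.9e-05), which is 2.04-fold. The difference of Tfap2a, -0.52 (adjusted p = 0.00117), did not pass after quantile normalization (-0.31, adjusted p = 0.0555) or with a separate variance for each group (adjusted p = 0.0507).

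A wider list of 38 epithelial and mammary transcription factors, of which 35 were tested, had 26 lower and 3 higher in FoxF1 cells, at a median difference of -0.92. By 1.5-fold or more, 22 of the 35 fell, against 9.03% of all genes tested. At any size, 18.8% of all genes tested fell and 20.2% rose. The homeobox factor Barx2 stood at -4.24 against wild type cells (adjusted p = 1.6e-08), the CBP/p300 interactor Cited4 at -3.74 (adjusted p = 1.6e-08), the grainyhead-like factor Grhl2 at -3.72 (adjusted p = 4.2e-07) and Id4, an inhibitor of helix-loop-helix factors, at -3.69 (adjusted p = 2.1e-07). The 3 that rose were the estrogen receptor gene Esr1 at 1.14 (adjusted p = 1.9e-04), Foxq1 at 0.54 (adjusted p = 0.00476) and Runx3 at 0.29 (adjusted p = 0.0217). In NFI-C2 cells 11 of the 35 rose (31.4%) and 8 fell (22.9%), against 8.59% and 12.2% of all genes tested. The median was 0.06, but only 4 rose and 3 fell where each group had its own variance. Prdm1, a repressor in differentiating keratinocytes, rose by 1.00 (adjusted p = 2.3e-04) and Bcl11b by 0.96 (adjusted p = 1.8e-04), whereas Id2 fell by 1.09 (adjusted p = 8.7e-05) and Zfp750, an epidermal factor, by 0.935 (adjusted p = 0.00119). Factors that fell with FoxF1 were thus found on both sides of wild type cells with NFI-C2, with Trp63, Klf4 and Klf5 above and Ehf and Elf5 below. Of these, only Klf5 still passed with NFI-C2 where each group had its own variance. None of them passed there when tested against a change of 1.5-fold.

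**Figure D4:**
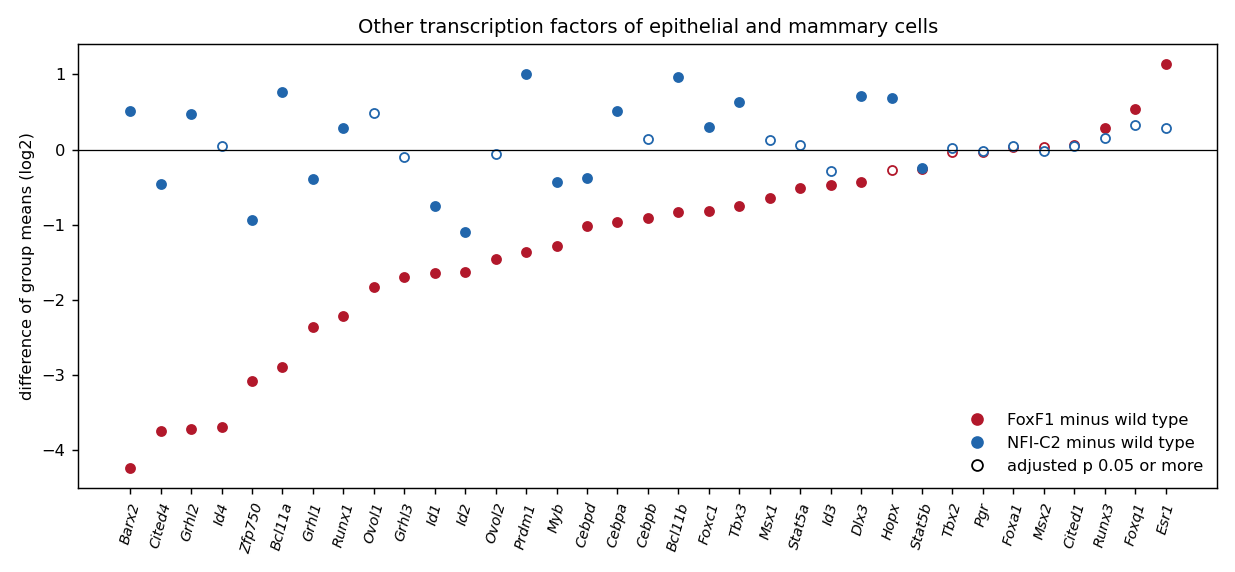
Differences of 35 other epithelial and mammary transcription factors from wild type cells, in log2 units on the y axis, ordered by their difference with FoxF1. Filled points passed the test and open points did not; Barx2 lies lowest at -4.24 and Esr1 highest at 1.14 with FoxF1.

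The genes whose values over the 9 arrays lay closest to each factor were found by the root mean square distance in log2 units, as a description that rests on the same 9 arrays and on the order of the same 3 groups. The distance was not scaled to the size of a gene's changes, so rankings of distance partly reflect that size. Klf4 had the closest neighbours of the 10, Bcas3 at a distance of 0.033, the growth factor gene Tgfb1 at 0.054 and Aebp2 at 0.055. The nearest to Elf5 were Tmem139 at 0.120, Id1 at 0.137 and the ubiquitin ligase gene Rnf125 at 0.139, and Id1 differed by -1.64 with FoxF1 and -0.76 with NFI-C2. To Ehf the nearest were Nkd2, a Wnt antagonist gene, at 0.081, Plet1 at 0.143 and Bpifc at 0.197. Gata3 was closest to the endocytic adaptor gene Dab2 at 0.094, Dio2 at 0.122 and Tmsb10 at 0.133. Trp63 was closest to Plch2 (0.101), Hcar2 (0.146) and Robo1 (0.176), Klf5 to Dennd2c (0.064), Emp1 (0.083) and Fam180a (0.084), and Tfap2c to Sema6a (0.128), Cadps2 (0.13) and Sorl1 (0.159). For Sox9 they were Anapc11 (0.061), Zfp36l1 and Sh3yl1 (both 0.085), for Elf3 Jpt1 (0.108), Psd4 (0.131) and Trim47 (0.148), and for Tfap2a Ifitm3 (0.062), Arid3b (0.064) and Tspan3 (0.068). Among the 10 factors themselves, Klf4 and Klf5 were closest at 0.209, followed by Elf3 and Sox9 at 0.252, and Ehf and Gata3 were farthest apart at 3.35.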

How the data were processed

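RNA from 9 cultures of HC11 cells, 3 per group, was hybridized by the authors to Mouse Gene ST arrays. The authors deposited log2 expression values by transcript cluster, which the submitters' processing notes credit to RMA, with no version or settings given in the sources used here. The median over the 9 arrays was 0 in all 28815 clusters, a centring that the methods do not name. Of 2 deposited tables that agree within 5.0e-08, the annotated one was used, and a table with the authors' own p-values over the 3 groups was not used. The labels name Trizol and the methods the GenElute kit for RNA.

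Clusters with 1 symbol in the platform annotation (21780) were used, 1605 with several and 5430 with none were left out, and symbols were updated through the Entrez identifier. Where several clusters shared a symbol (998 genes), that with most probes was taken. The 1438 genes with equal values on all arrays were left out, and 4224 of the 18497 tested had arrays tied at the lowest value. Among the 10 factors, 2 FoxF1 arrays tied for Ehf, 2 wild type arrays for Trp63 and 2 NFI-C2 arrays for Sox9, within 1e-06, which lowers the spread within the group.

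Group means were fitted to all 9 arrays together with limma 3.58.1 (R 4.3.3), variances were moderated with no trend (residual degrees of freedom 6, prior 1.29), and two-sided tests were used with Benjamini-Hochberg adjustment over the 18497 genes and a threshold of 0.05. A permutation of 3 against 3 arrays cannot go below p = 0.1. The number of arrays limits the precision. The script was tested on simulated data. Python 3.11.15 with pandas 2.3.3 and NumPy 2.4.6 read the tables, and figures were drawn with matplotlib 3.10.9. Named genes are the 10 factors, up to 4 called genes per list and comparison with the greatest differences, and the 3 genes nearest to each factor, passing over predicted and RIKEN symbols. Spdef, Dst, Esr1, Foxq1, Runx3 and the genes near a factor on the chromosome lie outside this rule and were named after their values were seen. The 10 factors and the lists were chosen with earlier results of these data known, and no p is given for a list.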

Additional observations from a re-analysis of the deposited data

How the results depend on the processing

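Of 570 values of the 10 factors (30 differences under 19 alternatives), 547 kept their direction and their side of the threshold, 17 no longer passed, 6 passed newly and none changed direction. The 6 were all Sox9 with NFI-C2. Direction could not change under the block, separate variances, the 1.5-fold test, the choice of genes or fits of 2 groups, which keep each difference. The median shift, the second table and the mean over a gene's clusters could move no factor. Array medians were already 0, and each factor has 1 cluster. With a separate variance for each group, 4586 genes were called with FoxF1 (2322 lower, 2264 higher), 1138 with NFI-C2 (694 lower, 444 higher, and 2 of the 10 factors, 1 lower and 1 higher) and 2825 were higher in FoxF1 than in NFI-C2 cells. Tested against a change of 1.5-fold, 1923 genes were called with FoxF1 (1190 lower, 733 higher), 306 with NFI-C2 (174 lower, 132 higher) and 2240 between FoxF1 and NFI-C2 cells (1256 lower, 984 higher), and of the 10 factors with NFI-C2 1 was lower, Gata3, and 0 were higher. In that test Klf4, Klf5 and Tfap2a no longer passed with FoxF1, nor Elf5 and Tfap2a between the transfected lines. Among the gene lists, separate variances left 3 fibroblast markers, 1 adipocyte marker and 1 of 35 epithelial and mammary factors higher with FoxF1. With only the 2 groups compared, 8 basal markers were higher with NFI-C2. The tests with separate variances used only the arrays of the 2 groups compared, and their variances were not moderated. They therefore rest on fewer degrees of freedom than the main fit, which can lower counts by construction. How much of the lower counts comes from this and how much from unequal variances was not tested. The 1.5-fold test asks for a greater change by its construction.

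Leaving out each array in turn gave 6648 to 7135 genes with FoxF1 (3143 to 3451 lower, 3349 to 3756 higher), 3072 to 3911 with NFI-C2 (1704 to 2276 lower, 1309 to 1635 higher) and 7259 to 7654 between the lines (3267 to 3473 lower, 3941 to 4215 higher). Of the 10 factors, 9 were called with FoxF1, 6 to 7 with NFI-C2 and 10 between the lines. Deviations of arrays with the same replicate number correlated at 0.00051 to 0.179 over 9 pairs. Those of arrays with different numbers correlated at -0.192 to 0.101 over 18 pairs. Not every array correlated best with its own number, and whether the numbers mark a shared step was not tested. With the replicate number as a block, 7306, 3904 and 7844 genes were called, and of the factors 9, 7 and 10, Sox9 with NFI-C2 being the one gained (adjusted p = 0.0442). Sox9 also passed after quantile normalization (-0.295, adjusted p = 0.014), without genes tied at the lowest value (adjusted p = 0.0485) and with only the 2 groups compared in the fit (adjusted p = 0.0402). Quantile normalization gave 5520 genes with FoxF1 (2994 lower, 2526 higher), so that 45.8% of calls were higher, against 51.7%. This step gives all arrays the same distribution. Before it, centred values spread more on FoxF1 arrays (SD 0.622 to 0.635) than on NFI-C2 (SD 0.223 to 0.24) or wild type arrays (SD 0.194 to 0.203). The step can therefore change the size of a difference by its construction, that of Sox9 included. Shifting each array to a median of 0 and the second deposited table left all values as they were. A scan batch as a block was not run, since the files used here give none. Centred values do not show signal over background, so a low signal cannot be told from a small change.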

Other observations

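Genes near the 10 factors on the chromosome were looked at after the values had been seen. Within 300 kb of a factor's cluster (build NCBIM37) lay 45 other genes tested, leaving out clusters on another chromosome than the RefSeq gene. In FoxF1 cells 8 of them fell (17.8%) and 9 rose, against 18.8% and 20.2% of all genes tested, and in NFI-C2 cells 9 fell (20%) and 2 rose, against 12.2% and 8.59%. Ehf and Elf5 are 120.9 kb apart. BC016548, between them, fell by 0.34 with FoxF1 (adjusted p = 9.6e-05) and by 0.43 with NFI-C2 (adjusted p = 1.3e-04), and Abtb2, 115.3 kb from Elf5, by 0.81 (adjusted p = 4.7e-05) and 0.41 (adjusted p = 0.0047). The catalase gene Cat, 2.9 kb from Elf5, was at -0.11 with FoxF1 (adjusted p = 0.106) and fell by 0.19 with NFI-C2 (adjusted p = 0.0236).

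BC006965, 70.9 kb from Sox9, fell by 5.96 with FoxF1 (adjusted p = 1.5e-09) and by 1.81 with NFI-C2 (adjusted p = 3.7e-06), against differences of -1.94 and -0.17 for Sox9 itself. P3h2, a collagen prolyl hydroxylase gene 68.2 kb from Trp63, fell by 3.45 with FoxF1 (adjusted p = 2.9e-07) and was at -0.06 with NFI-C2 (adjusted p = 0.81). Near Elf3, Lgr6, a receptor gene of epidermal stem cells, fell by 2.07 (adjusted p = 1.8e-06) and Shisa4 rose by 2.32 (adjusted p = 1.0e-06) with FoxF1, while with NFI-C2 Lgr6 rose by 0.745 (adjusted p = 0.0015).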
